A study of Homo sapiens with 6 samples.

Results

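The DDX and DHX genes encode RNA helicases, and 51 protein-coding genes with a symbol of that form were found among the 18969 genes of an RNA-seq table from HK-2 cells. Of these, 35 are DDX genes and 16 are DHX genes. The other 8 genes with such a symbol are typed as pseudogenes or non-coding RNAs and were left aside. HK-2 is an established line of immortalised human kidney proximal tubule cells. Every library came from cells given 20 µM cisplatin, a DNA-damaging platinum drug toxic to the kidney tubule. The 3 controls labelled WT (control libraries 1 to 3) were set against 3 libraries labelled as overexpressing Nfe2l1 (n = 3). NFE2L1, also known as Nrf1, is a transcription factor of the endoplasmic reticulum that drives proteasome and antioxidant genes. The labels give neither the vector used, nor the time under cisplatin, nor whether the libraries of a group came from separate cultures, and p-values below reflect library-to-library spread only, which may be technical. No group without cisplatin is part of the comparison.

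RNA helicases use ATP to separate RNA strands or to strip proteins from RNA, and nearly every step in the life of an RNA uses some of them. The DEAD-box proteins (DDX) and DEAH-box proteins (DHX) are named after the amino acids of the motif that holds the magnesium and ATP. DEAD-box enzymes pry apart short duplexes locally, whereas DEAH-box enzymes pull along a strand. In kidney tubule cells, as in other dividing cells, most of them work in ribosome assembly, pre-mRNA splicing, mRNA export and translation, and a smaller group senses viral RNA.

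The overexpressed gene was read before any direction was drawn from the labels. Levels are FPKM values scaled by the TMM library factors, so they can be compared between libraries and, being per length, between genes. NFE2L1 stood at 48.4, 52.3 and 50.9 in the controls and at 50.6, 153.7 and 70.1 in libraries 1, 2 and 3 labelled overexpression. The library labelled overexpression 1 was thus at the level of the controls. The mean was 50.5 ± 2 (SD, n = 3) in controls and 91.5 ± 54.8 (SD, n = 3) in the other group. The log2 fold change of 0.86 had an adjusted p of 0.115 in edgeR's quasi-likelihood test and an exact two-sided permutation p of 0.3. Without library 1 the log2 fold change was 1.13, with an edgeR adjusted p of 0.0288. Directions below therefore compare libraries by their labels, and the calls are also given without library 1. Library totals ran from 16865460 to 23458333 counts. The HK-2 identity was read from 17 kidney epithelium markers. Of these, 8 had a mean level of at least 1 (among them PAX8, KRT7, KRT8, KRT18, KRT19, EPCAM and CDH2), while the proximal tubule markers GGT1, AQP1, ANPEP, LRP2, CUBN, SLC34A1 and SLC5A2 were under 1 or had no row in the table used here. The summed level of the epithelial list was 925.1 to 966.3 in controls and 1218.6 to 1616.8 in libraries labelled overexpression, most of it from KRT8 and KRT18. Among the markers with a mean level of at least 1, CDH2 alone was lower in the latter (mean 38.8 and 24.5). The part of the shift in the summed level in the results below was not tested. Fibroblast markers summed to 14.4 to 17.4 in controls and 5.9 to 7.99 in the other group, and leukocyte markers to 1.28 to 2.5 and 0.945 to 3.09. LUM made up most of the fibroblast sum (mean 14.9 and 5.56), while COL1A1 was at a mean of 1.3 and 1.43. CD14 made up most of the leukocyte sum, so both sums rest mostly on single genes. None of the 5 endothelial markers had a row.

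Of the 51 helicase genes, 49 had enough counts to be tested, and 8 of them passed an adjusted p of 0.05 (edgeR, Benjamini-Hochberg adjustment over 15046 genes). DDX3X, DHX40, DHX36, DHX9 and DDX21 were lower in libraries labelled overexpression, and DDX49, DDX56 and DDX19A were higher. The other 41 did not pass. An unadjusted p under 0.05 was found for 26 helicases, the 8 included. The share of helicases that passed, 16.3%, was near the 19.1% of all genes tested that did. By direction, 10.2% of helicases passed as lower against 9.49% of all genes, and 6.12% passed as higher against 9.62%. The sign was less even: 34 of the 49 had a negative log2 fold change, 69.4% against 48.3% of all genes tested, and the median was -0.24 against 0.03. Groups did not overlap for 30 helicases, 61.2% of them against 42.6% of all genes, with 19 lower (against 20.9% of all genes) and 11 higher (against 21.8%). Log2 fold changes spanned -1.32 (DDX3X) to 0.75 (DDX56). The DDX genes had a median of -0.21 and 3 up and 2 down calls among 33 tested, and the DHX genes a median of -0.31 with no up and 3 down calls among 16. In the authors' deposited table of adjusted p-values, 10 helicases were past 0.05 as lower and 4 as higher, where 20.2% of all genes were past it.

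**Figure D1:**
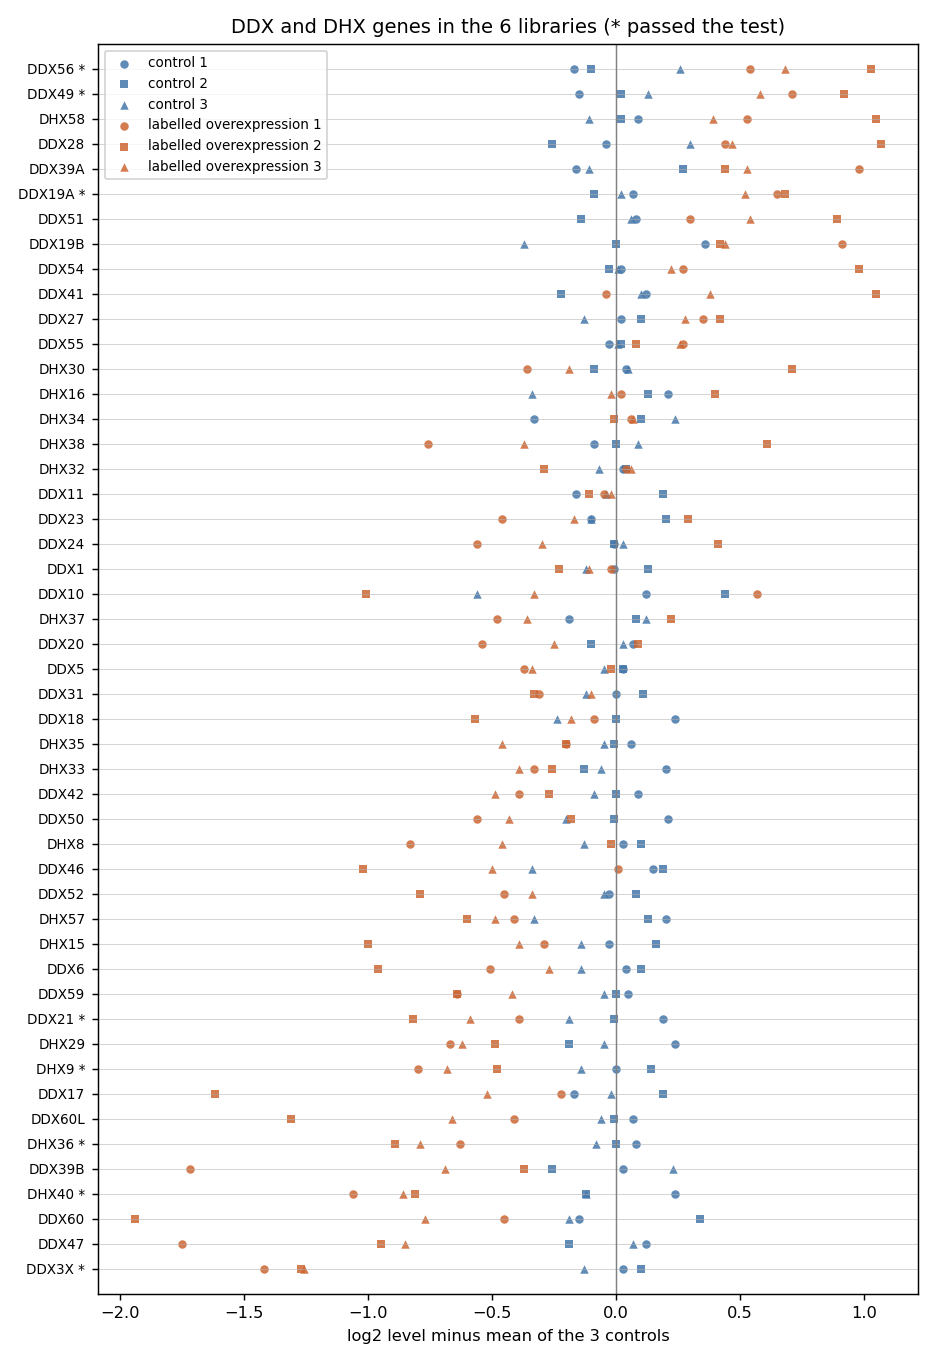
Log2 level of the 49 tested helicase genes in each library, minus the mean of the 3 controls (x axis, log2 units), sorted by fold change, with 1 row a gene. Blue points are controls and orange points are libraries labelled overexpression; orange points lie left of 0 for most genes, down to DDX3X at the bottom, and library 2 (squares) is often at an end of the orange spread.

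Leaving out the library without raised NFE2L1 gave 3 higher and 7 lower helicases, against 8.2% of all genes higher and 8.9% lower. DHX40 (-0.85), DHX36 (-0.85), DHX9 (-0.59), DDX21 (-0.72), DDX49 (0.74), DDX56 (0.84) and DDX3X (-1.28) still passed, with edgeR adjusted p from 0.0238 to 0.0451. DDX19A no longer did, while DDX17 (-0.98, edgeR adjusted p 0.049), DDX60L (-0.97, edgeR adjusted p 0.0441) and DDX51 (0.71, edgeR adjusted p 0.048) then passed. Without control 1 no helicase passed (14 had an unadjusted edgeR p under 0.05) and 1 gene of the whole table did, and without control 2 no helicase and no gene passed (14 helicases and 3800 genes had an unadjusted edgeR p under 0.05). Without control 3, 2 helicases were higher and 4 lower, and 1468 genes of the whole table passed. Without library 2 labelled overexpression, 4 helicases were higher and 11 lower, and 3603 genes of the whole table passed. Without library 3 the helicase counts were 1 and 3, and 1470 genes of the whole table passed. The median deviation of the helicases from the control mean was -0.33, -0.20 and -0.33 in libraries 1, 2 and 3 labelled overexpression, so all 3 shared the lower median. Library 2 was nevertheless the highest of the 3 for 26 helicases and the lowest for 20. Between libraries of a group, the median SD of the helicases' log2 levels was 0.14 in controls and 0.25 in the group labelled overexpression, against 0.22 and 0.33 over all genes tested. In bulk RNA, fewer cells that use a gene and less of its RNA per cell cannot be told apart.

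The motif that gives the families their names can be read in the coding sequences. The search was for codons of D-E, then isoleucine, valine, leucine, methionine, phenylalanine, cysteine or alanine, then D or H. The codons just before the box had to be of that same set. Codons of G-K-S or G-K-T, the ATP-binding motif, also had to lie within a set distance upstream. Under these conditions 1 such box was found in the GENCODE reading frame of 45 of the 51 genes. The last codon was aspartate in 27 DDX genes and histidine in all 15 DHX genes found. The innate sensors DDX58, DDX60 and DDX60L carry histidine in spite of their DDX names. The search found no box in the frames of DDX1, DDX11, DDX24, DDX52 and DHX32. This says only that no stretch met all of these conditions, and the letters of the box may still be present there. No frame of DDX17 was searched. The boxes of the 8 genes that passed the test, and of the export pair DDX39A and DDX39B, are shown with 18 bases on each side. Among the 8, the genes that fell had transcripts of lower GC content than those that rose. Their boxes overlapped in this, with 0 to 2 of 4 codons ending in G or C in those that fell and 1 to 2 in those that rose. Capitals mark the 12 bases of the box, read 5′ to 3′ on the coding strand.
DDX3X: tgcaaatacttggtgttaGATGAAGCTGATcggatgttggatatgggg
DHX40: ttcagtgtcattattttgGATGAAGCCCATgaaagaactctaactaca
DHX36: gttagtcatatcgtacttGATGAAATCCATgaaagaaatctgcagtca
DHX9: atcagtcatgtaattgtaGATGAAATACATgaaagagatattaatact
DDX21: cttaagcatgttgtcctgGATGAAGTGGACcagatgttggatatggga
DDX49: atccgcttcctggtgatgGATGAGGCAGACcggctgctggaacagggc
DDX56: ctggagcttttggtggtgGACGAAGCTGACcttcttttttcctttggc
DDX19A: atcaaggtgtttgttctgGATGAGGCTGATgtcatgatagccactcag
DDX39A: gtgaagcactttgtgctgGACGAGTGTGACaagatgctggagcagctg
DDX39B: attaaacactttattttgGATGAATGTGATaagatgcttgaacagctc
On GRCh38 the box of DDX3X is at chrX:41345193-41345204 (+ strand), that of DHX40 at chr17:59573206-59573217 (+), that of DHX36 at chr3:154304930-154304941 (-), that of DHX9 at chr1:182867017-182867028 (+) and that of DDX21 at chr10:68967128-68967139 (+). The box of DDX49 is at chr19:18922332-18922343 (+), that of DDX56 at chr7:44572621-44572632 (-), that of DDX19A at chr16:70366201-70366212 (+), that of DDX39A at chr19:14411008-14411019 (-) and that of DDX39B at chr6:31536519-31536530 (-). All are coding exon sequence. DDX39A and DDX39B spell the same residues with different bases at the end of codons, 3 of 4 box codons ending in G or C in DDX39A and 0 in DDX39B. The median log2 fold change was -0.19 over the 26 tested genes whose box ends in aspartate (15 negative, 11 positive) and -0.40 over the 17 whose box ends in histidine (13 negative, 4 positive).

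Helicases of translation, mRNA decay and tRNA processing had the largest single change. DDX3X, a translation helicase that helps ribosomes scan structured 5′ leaders and also takes part in innate signalling, lies at chrX:41333348-41364472 on the + strand of GRCh38. Its level was 108.5, 113.7 and 96.8 in the controls and 39.6, 43.9 and 44.4 in libraries 1 to 3 labelled overexpression. All 3 of the latter were below every control, including library 1. The mean fell from 106.3 ± 8.64 to 42.6 ± 2.66 (SD, n = 3 each), which is -1.32 on the log2 scale (SE 0.14, edgeR adjusted p 0.0105). Without library 1 it was -1.28 (edgeR adjusted p 0.0238), and leaving out each library in turn gave -1.38 to -1.27 with edgeR adjusted p from 0.00462 to 0.0778. DHX36, which unwinds G-quadruplexes, multi-stranded folds in guanine-rich RNA and DNA, lies at chr3:154272546-154324487 (-). Its level was 21.7, 20.6 and 19.5 in controls and 13.3, 11.1 and 11.9 in the other group, with no overlap. It fell by 0.77 on the log2 scale (SE 0.15, edgeR adjusted p 0.0145). DDX1, a subunit of the tRNA ligase complex and 1 of the 6 helicases with the highest mean level, stood at 130.3, 144.2 and 120.9 in controls and 129.5, 112.0 and 121.7 in the other group. These values overlapped, and the log2 fold change of -0.12 (SE 0.14) had an edgeR adjusted p of 0.569. Of the 6 genes in this group, 2 passed and 5 had negative values, with a median of -0.58. Of all genes tested, 19.1% passed and 48.3% had negative values. The others were DHX29, which helps the small ribosomal subunit scan (-0.60, edgeR adjusted p 0.0555), DDX6, the decapping and P-body helicase (-0.56, edgeR adjusted p 0.0776), and DHX34, which acts in nonsense-mediated decay (0.03).

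Ribosome biogenesis helicases, the largest group with 16 genes, moved in both directions. DDX49 and DDX56 rose, DDX21 fell, and 13 did not pass, with a median log2 fold change of -0.18. Of all genes tested, 9.62% passed as higher and 9.49% as lower, so these counts were near the share of the whole table. DDX56, a nucleolar protein of large-subunit assembly (chr7:44565804-44575051, -), was at 55.5, 58.4 and 74.9 in controls and 90.8, 127.2 and 99.6 in libraries labelled overexpression. The groups did not overlap, and the log2 fold change was 0.75 (SE 0.19, edgeR adjusted p 0.0282). DDX49, a nucleolar helicase of ribosomal RNA processing (chr19:18919705-18929189, +), was at 17.7, 20.0 and 21.6 in controls and 32.4, 37.4 and 29.4 in the other group. Its log2 fold change was 0.74 (SE 0.17, edgeR adjusted p 0.0227), again without overlap. DDX21, which links RNA polymerase I and II transcription with rRNA processing (chr10:68956170-68985068, +), was at 138.5, 120.6 and 106.2 in controls and 92.5, 68.4 and 80.5 in the other group. Every library labelled overexpression was below every control, with a log2 fold change of -0.60 (SE 0.17, edgeR adjusted p 0.0392). Among the genes that did not pass, DDX47 was the most negative at -1.24 (edgeR adjusted p 0.0547), at levels under 1 in every library and with 36.5% of its exon bases shared with APOLD1 on the same strand. Its counts are uncertain for that reason. DDX52 (-0.52), DDX51 (0.60, and past the threshold without library 1), DDX54 (0.53) and DDX27 (0.35) also had groups that did not overlap and edgeR adjusted p between 0.0589 and 0.114. DDX10, DDX18, DDX24, DDX31, DDX50 and DHX37 had values between -0.39 and -0.09 with overlapping groups, DHX33 was at -0.34 and DDX55 at 0.21.

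**Figure D2:**
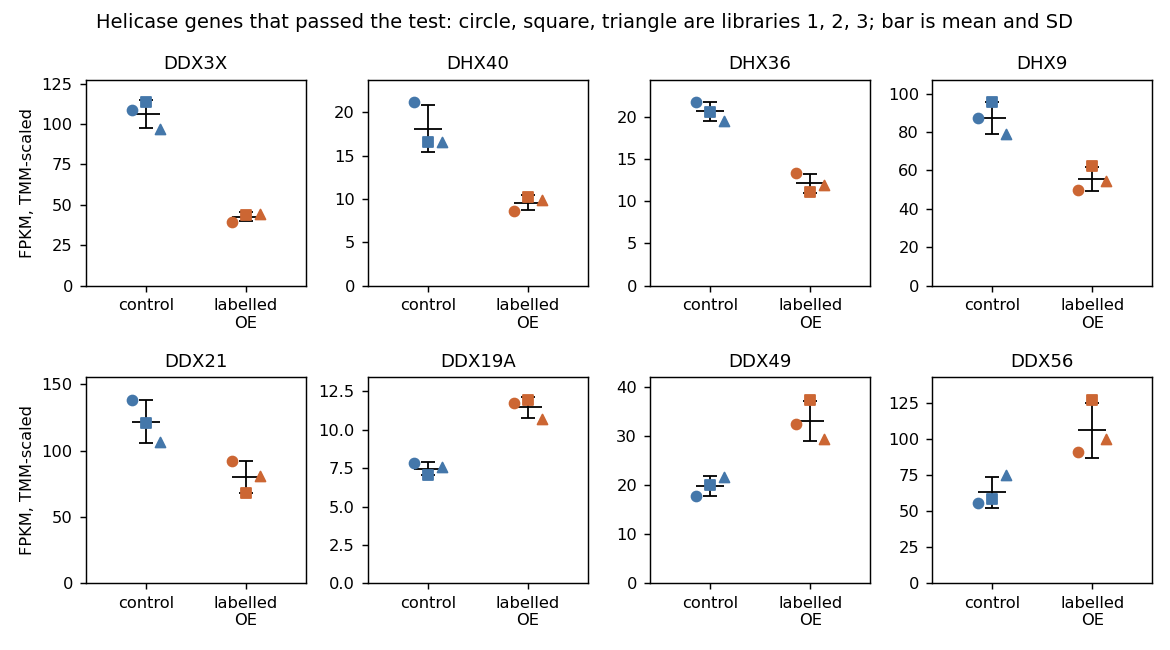
Level (y axis, TMM-scaled FPKM, from 0) of the 8 helicase genes that passed the test, with 1 point a library, circles, squares and triangles for libraries 1, 2 and 3, and mean and SD as bars (n = 3 a group; OE, overexpression). DDX3X, DHX40, DHX36, DHX9 and DDX21 are lower in all 3 libraries labelled overexpression than in any control, and DDX19A, DDX49 and DDX56 are higher in all 3.

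With all 6 libraries, none of the 13 splicing helicases passed edgeR's adjusted threshold, where 19.1% of all genes tested did. A negative log2 fold change was found for 11 of them, against 48.3% of all genes, with a median of -0.28. DDX5, a splicing and microRNA-processing helicase (chr17:64498254-64508199, -), had the highest mean level of all 51 genes, 169.0. It was at 186.0, 186.2 and 176.3 in controls and 141.4, 179.7 and 144.4 in the other group. Library 2 labelled overexpression lay within the range of the controls, and the log2 fold change was -0.24 (SE 0.15, edgeR adjusted p 0.275). Its paralog DDX17 was at 34.9, 45 and 38.7 in controls and 33.8, 12.8 and 27.4 in the other group (-0.68, edgeR adjusted p 0.147), with library 2 the lowest. Without library 1, which lay nearest the controls, DDX17 passed (-0.98, edgeR adjusted p 0.049). DDX39B, which assembles the spliceosome and loads export factors, was at 38.9, 31.7 and 44.5 in controls and 11.5, 29.3 and 23.6 in the other group (-0.84, SE 0.31, edgeR adjusted p 0.0908). Library 1 was the lowest, and 29.7% of its exon bases are shared with the ATP6V1G2-DDX39B readthrough, so its counts are uncertain. The spliceosome ATPases had smaller values. DHX15, which takes apart the spliceosome, was at -0.53 (edgeR adjusted p 0.0954), DDX46 of the branch site at -0.46, DHX8, which releases the mRNA, at -0.40, DDX42 at -0.38, DDX23 of the U5 particle at -0.09, and DHX38 and DHX16, which drive the catalytic steps, at -0.05 and 0.12. DHX35 was at -0.28 and DDX20 (gemin 3), a subunit of the SMN complex that loads Sm rings on small nuclear RNAs, at -0.21. DDX41, which is mutated in inherited myeloid leukaemia, was at 0.53 with overlapping groups.

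The 3 helicases listed under mRNA export were all higher without overlap, as were 21.8% of all genes tested, and 1 passed, as did 9.62% of all genes. DDX39B, which also serves export, was listed under splicing and went the other way without overlap (-0.84 on the log2 scale). DDX19A, which releases export receptors at the nuclear pore (chr16:70346861-70373383, +), was at 7.84, 7.03 and 7.55 in controls and 11.7, 11.97 and 10.7 in libraries labelled overexpression. Its log2 fold change was 0.62 (SE 0.17, edgeR adjusted p 0.0363), and 0.59 with an edgeR adjusted p of 0.0703 without library 1. DDX19B was at 7.26, 5.63 and 4.36 in controls and 10.6, 7.53 and 7.63 in the other group (0.58 on the log2 scale, edgeR adjusted p 0.126). Their reading frames are 94.6% identical and both share exon bases with a readthrough gene (23.8% for DDX19A and 15.7% for DDX19B), so the split of reads between them is uncertain. DDX39A, the export paralog of DDX39B, was at 44.9, 60.6 and 46.6 in controls and 99.4, 68.2 and 72.6 in the other group. It did not pass the test, at 0.66 on the log2 scale (SE 0.20) with an edgeR adjusted p of 0.0501.

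DHX9, a nuclear helicase that resolves R-loops and other DNA and RNA structures (chr1:182839347-182887982, +), was at 87.2, 95.7 and 79.2 in controls and 49.99, 62.4 and 54.4 in libraries labelled overexpression. All 3 were below the controls, and the gene fell by 0.65 on the log2 scale (SE 0.15, edgeR adjusted p 0.0223). DDX11, the other genome-maintenance helicase and a cohesion factor, was at -0.06, and shares near-identical sequence with a pseudogene copy. DHX40, whose cellular role is little described (chr17:59565558-59608345, +), was at 21.2, 16.6 and 16.6 in controls and 8.59, 10.3 and 9.91 in the other group. It fell by 0.92 on the log2 scale (SE 0.18, edgeR adjusted p 0.0144), with no overlap. Of the remaining genes, DDX59 was at -0.57 (edgeR adjusted p 0.053), DHX57 at -0.52, and DHX32 at -0.06. The mitochondrial ribosome factors DDX28 (0.68, edgeR adjusted p 0.0856) and DHX30 (0.13) did not pass, and 22.5% of the exon bases of DDX28 overlap DUS2 on the opposite strand.

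The innate RNA sensors were at low levels, and none passed edgeR's adjusted threshold with all 6 libraries. DDX58, the sensor RIG-I, was between 0.0465 and 0.0852 in controls and between 0.0101 and 0.0202 in the other group, and had too few counts to be tested. DHX58, the regulator LGP2, was between 0.694 and 1.59 over all libraries (0.71 on the log2 scale, edgeR adjusted p 0.126). DDX60 and DDX60L, interferon-induced genes, had values of -0.98 (edgeR adjusted p 0.112) and -0.76 (edgeR adjusted p 0.0708). Without library 1, DDX60L passed (-0.97, edgeR adjusted p 0.0441). DDX4, the germline helicase VASA, was at or under 0.592 in every library, at 0 in control 2 and library 3 labelled overexpression, and was not tested.

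The sign of a helicase's fold change followed its base composition. With GC content taken from the longest GENCODE transcript, all 23 helicases under 45% GC had a negative log2 fold change (median -0.56) and the 5 that fell are among them. Of the 12 helicases between 45% and 55% GC, 8 were negative (median -0.17), and of the 14 at 55% or above, 3 were negative (median 0.53). These limits were chosen after the values were seen. All genes tested showed the same order, with medians of -0.38, 0.07 and 0.49 in the same ranges. Spearman's rho between log2 fold change and GC content was 0.75 over the 49 helicases and 0.55 over all genes, and with length it was -0.46 and -0.54. These are correlations across genes that share the same 6 libraries and are given as descriptions. GC at the last base of each codon gave 0.75 over 48 helicases, with a median of 41.3% in those with negative and 74.4% in those with positive values. Promoter GC content gave 0.11.

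With an offset fitted in each library on gene length and GC content, the helicase median was -0.04 (0.02 over all genes) and none passed edgeR's test, while 9 had an unadjusted p under 0.05. The whole table then had 111 calls and 2947 genes with an unadjusted p under 0.05. The offset added a smooth term in length and another in GC content, and these counts hold for that form, the one fitted. It takes out any difference between libraries that follows length or GC content, whatever its source. DDX3X kept a log2 fold change of -0.73 (SE 0.17, edgeR adjusted p 0.0654) and DHX40 one of -0.47 (edgeR adjusted p 0.186). DHX36 went to -0.06, DDX21 to -0.08, DHX9 to -0.23, DDX49 to 0.11 and DDX56 to 0.33. DDX19A was at 0.67 (edgeR adjusted p 0.0596), and DDX39B reached -1.09 (edgeR adjusted p 0.0787). Whether the dependence on composition arose in library preparation or in the cells was not tested.

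**Figure D3:**
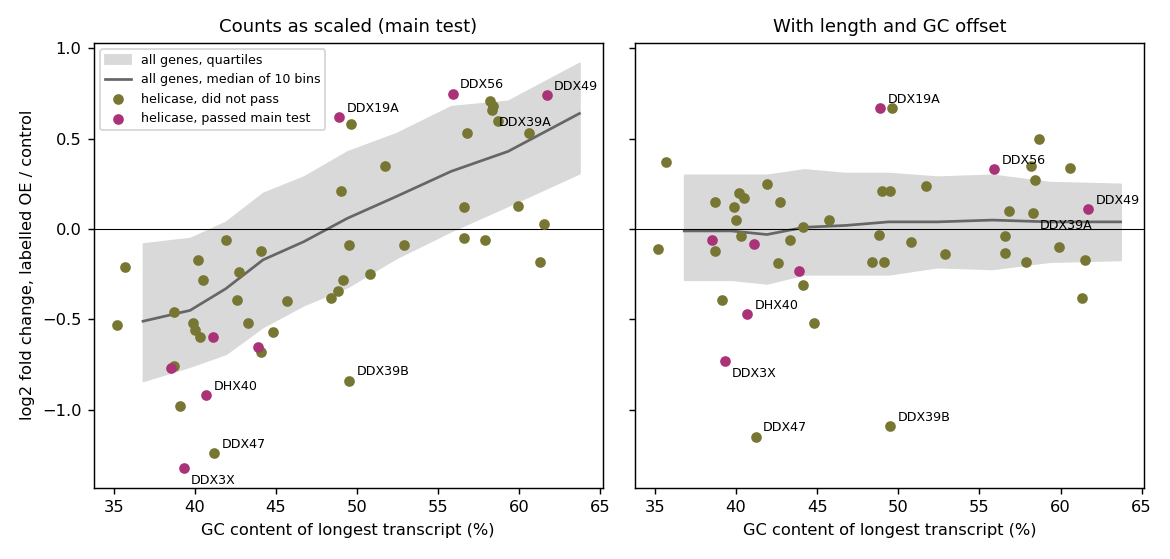
Log2 fold change (y axis) against GC content of the longest transcript (x axis, percent) for the 49 tested helicases (points), with the median and quartiles of all genes in 10 bins of GC (line and band); left, as tested, right, with the length and GC offset. On the left the helicases rise with GC along the line of all genes (rho 0.75). On the right, where the offset was fitted to take out that slope, it is small (rho 0.17), with DDX3X, DDX47 and DDX39B lying lowest.

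Comparing related helicases within each library asks whether they changed by different amounts. For 13 pairs with both genes tested, the log2 ratio of their levels was set between groups by an exact two-sided permutation test, whose smallest possible p with 3 against 3 is 0.1. Hence no pair could pass 0.05, and the smallest adjusted p over the 13 pairs was 0.22. The largest shift was in DDX39A over DDX39B. Their log2 ratio was 0.21, 0.93 and 0.07 in controls and 3.11, 1.21 and 1.62 in libraries 1 to 3 labelled overexpression, a difference of 1.58 (exact p 0.1). The groups did not overlap, and library 1 carried the most extreme ratio; without it the difference was 1.01. With the length and GC offset the difference was 1.22 (exact p 0.2). The frames of this pair are 80.0% identical, and the last codon base is G or C in 77.9% of DDX39A and 63.5% of DDX39B codons.

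Ratios in 5 other pairs also did not overlap, each with an exact p of 0.1, the value that any ratio without overlap gets. Of all single genes tested, 42.6% did not overlap between groups, and no such share was computed for pairs. DHX33 over DHX40 was -0.96 ± 0.05 (SD, n = 3) in controls and -0.23, -0.41 and -0.49 in the other group, a difference of 0.58 (0.45 with the offset, exact p 0.1). DDX24 over DDX51 differed by -0.73, DHX9 over DHX30 by -0.71, DHX8 over DHX16 by -0.57 and DHX36 over DHX57 by -0.27. With the offset, those differences were -0.36, -0.11, -0.02 and -0.03. The pair DDX5 and DDX17 had log2 ratios of 2.41, 2.05 and 2.19 in controls and 2.07, 3.81 and 2.40 in the other group (difference 0.54, exact p 0.5), where library 2 alone stood apart. DDX21 over DDX50 differed by -0.21 (exact p 0.6) and DDX19A over DDX19B by 0.03 (exact p 0.9). Among the pair members not yet given by library, DHX33 was at 10.6, 8.44 and 8.86 in controls and 7.35, 7.72 and 7.05 in the other group, and DHX57 at 6.43, 6.15 and 4.46 and then 4.23, 3.69 and 3.98. DDX51 was at 4.99, 4.27 and 4.93 and then 5.80, 8.75 and 6.89. These 3 did not overlap between groups. DDX24 was at 56.7, 56.7 and 58.2 in controls and 38.8, 75.8 and 46.4 in the other group, and DHX30 at 17.5, 15.9 and 17.6 and then 13.2, 27.8 and 14.9. In both, library 2 was above every control and libraries 1 and 3 were below. DHX8 was at 9.10, 9.52 and 8.11 and then 4.99, 8.78 and 6.47, DHX16 at 14.9, 14.1 and 10.1 and then 13.03, 16.9 and 12.7, and DDX50 at 29.6, 25.3 and 22.2 and then 17.3, 22.6 and 18.9, all with overlap.

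**Figure D4:**
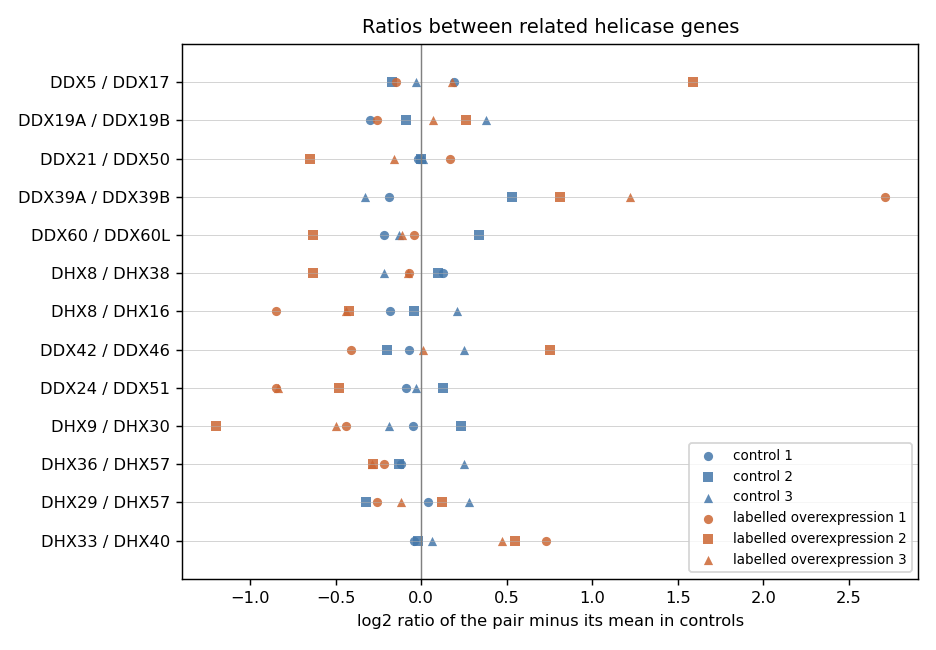
Log2 ratio between the levels of 13 pairs of related helicases in each library, minus the mean of that ratio in controls (x axis, log2 units); blue points are the 3 controls and orange points the 3 libraries labelled overexpression. The ratio of DDX39A to DDX39B lies right of every control in all 3 orange libraries, and DDX5 to DDX17 is high in library 2 only.

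Genes that work with these helicases were read from lists of their partners, 169 genes in all, of which 14 passed as higher (8.28%, against 9.62% of all genes tested) and 22 as lower (13%, against 9.49%), with a median log2 fold change of -0.08. Without library 1 the counts were 14 and 20, and GPATCH11, EIF4E2, PATL1, GEMIN5, BUD31 and IFIT2, all named below, no longer passed (edgeR adjusted p 0.0505 to 0.0937). Among 20 other RNA helicases outside the DDX and DHX names, 8 fell (40%, against 9.49% of all genes) and 0 rose in edgeR's test, with a median of -0.52. With the length and GC offset 0 passed edgeR's test and the median was -0.26. They include YTHDC2 (-0.91), TDRD9 (-0.70) and HELZ (-1.15), with edgeR adjusted p between 0.0368 and 0.045. Of 23 G-patch proteins, which switch on DEAH helicases, PINX1 (0.84) and GPANK1 (0.78) rose (8.7%) and GPATCH2 (-0.75) and GPATCH11 (-0.65) fell (8.7%). In the cap-binding group of 10 genes, EIF4E (-0.65), the cap-binding protein, and EIF4G2 (-0.89), a scaffold of translation initiation, fell (20%). EIF4EBP1 (0.81), an inhibitor of EIF4E, and EIF4E2 (0.57) rose (20%). XRN1 (-1.43), the cytoplasmic 5′ exonuclease, and PATL1 (-0.73) fell among 13 P-body genes (15.4%).

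Of 25 nucleolar assembly genes, 3 rose (12%) and 2 fell (8%), against 9.62% and 9.49% of all genes tested. The shares of the lists that follow stand against the same 2 values. FBL (0.94), the methyltransferase of ribosomal RNA, NOP56 (0.62) and NOC4L (1.01) rose, and WDR43 (-0.77) fell. Of 22 genes that dock or surround spliceosomal helicases, ISY1 (1.18) and BUD31 (0.56) rose (9.09%) and SF3B1 (-0.78), a branch-site factor, fell (4.55%). In export, NXT1 (0.88) and ALYREF (0.70) rose among 15 genes (13.3%). In the SMN complex GEMIN7 (1.08) rose and GEMIN5 (-0.64) fell among 8 (12.5% each). Of 13 genes of the exon junction and nonsense-mediated decay list, 2 fell (15.4%) and 0 rose in edgeR's test, with SMG1 at -1.09. None of 6 tRNA ligase genes passed edgeR's adjusted threshold without the offset. Among 15 genes of RIG-I signalling, ISG15 (1.29) and IRF3 (0.78) rose (13.3%) and TBK1 (-0.89) and IFIT2 (-0.69) fell (13.3%). With the length and GC offset, 1 of the 169 genes passed, RTRAF of the tRNA ligase list, named after its value was seen (1.05, SE 0.18, edgeR adjusted p 0.0441), and the median was -0.00. ISY1 was then at 1.14 (edgeR adjusted p 0.0542), XRN1 at -0.72 and HELZ at -0.52, and the signs of EIF4EBP1 (-0.19), ALYREF (-0.01) and BUD31 (-0.03) turned. The lists are described by their counts, and no list was tested as a whole.

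Promoters were available from RefSeq (GRCh38.p14, 250 bases before to 50 after the start) for 45 of the 51 genes. The core of the antioxidant response element, TGACNNNGC, the site type that NFE2L1 is known to bind, was searched on both strands and found in 7 of them, 15.6% against 13.6% of 27305 promoters. The 7 are DDX1, DDX5, DDX20, DDX39A, DHX34, DHX35 and DHX37, none of which passed the test. DDX49, which passed, had no promoter to search. The E-box CACGTG was found in 8 helicase promoters, 17.8% against 7.43% of all. These matches are a description of the letters in the window.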

How the data were processed

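Messenger RNA of HK-2 cells was sequenced in 6 libraries from a strand-specific kit, per the labels. Reads were trimmed with Trimmomatic 0.36 and GRCh38 was the genome build, per the submitters' processing notes. An aligner, a counter and its strand setting are not named there or in the labels. The authors deposited raw counts per gene and FPKM values. The authors also deposited log2 fold changes and p-values of their own comparison, quoted only where named. Counts were tested with edgeR 4.0.16 (R 4.3.3; filterByExpr, TMM, quasi-likelihood F test on group, Benjamini-Hochberg over 15046 genes, threshold 0.05), and a standard error is the log2 fold change over the root of F. Levels are counts divided by the TMM-scaled library size and by gene length, as in FPKM, the length being that implied by the authors' count and FPKM. The script was tested on simulated data of 15046 genes, with 50 genes changed at each size. It recovered 0% of 1.5-fold, 20% of 2-fold, 74% of 3-fold and 76% of 4-fold changes, with 5 false calls. Few genes were changed there, which makes the adjusted threshold stricter than in the real data. A helicase that did not pass may still have changed. Named genes are every tested helicase, with values by library for those past the threshold, the 6 with the highest mean level and members of the main paralog pairs, of each partner list at most 4 called genes by p, and NFE2L1. A few genes that this rule or the marker list would name are not reported here. Pairs described in full were chosen after their values were seen. Members and lists were chosen with earlier results of these data known. Reading frames and GC came from GENCODE 29. Alternatives were DESeq2 1.42.0, limma 3.58.1 on log2(FPKM + 1) or log2(FPKM + 0.1), other filters and scalings, a replicate block, an offset for length and GC (mgcv 1.9.3) and leaving out each library. Depth of 16865460 to 23458333 counts limits genes at levels under 1, such as DDX47 and DDX58.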

Additional observations from a re-analysis of the deposited data

How the results depend on the processing

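Helicase calls ended under the length and GC offset, under the replicate block and without control 1 or control 2, and no alternative turned the direction of any of the 8 helicases that passed. Of their 128 values under alternatives, 75 stayed past the threshold and 53 did not. For the reported counts of 3 higher and 5 lower helicases, DESeq2's Wald test gave 6 and 11. Limma gave 2 and 14 on log2(FPKM + 1) and 2 and 12 on log2(FPKM + 0.1). The filter of FPKM 5 in 3 libraries gave 3 and 9. Over the whole table, 1448 genes were higher and 1428 lower in the main test, and 1949 and 2060 with DESeq2. Limma gave 1198 and 2027 at the larger and 1163 and 1913 at the smaller pseudocount, and the filter 1401 and 1332. FPKM rescaled to a common sum gave 0 and 26, with 533 genes of the whole table higher and 4170 lower, and 4 and 76 partner genes, while the median of all genes moved to -0.35. The replicate block gave 0 and 0 for helicases, 0 and 0 for the whole table and 0 and 0 for partners, with 4413 genes and 18 helicases at an unadjusted edgeR p under 0.05. The offset gave 0 and 0 for helicases, 75 and 36 for the whole table, and 1 and 0 for partners, and the block with the offset gave 0 and 0 in each. Leaving out 1 library gave from 0 to 4 higher and from 0 to 11 lower helicases, from 0 to 1755 higher and from 0 to 1848 lower genes, and from 0 to 20 higher and from 0 to 29 lower partners. The causes were not tested, among them the fewer degrees of freedom that fewer libraries leave.

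Whether the replicate numbers pair the libraries cannot be settled from so few libraries. Deviations from the group means correlated at 0.01, -0.51 and 0.09 between same-numbered libraries, and control 2 correlated best with library 1 labelled overexpression (0.60), so the block stands as a setting with no claim of pairing.

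The helicase median of -0.24 became -0.34 and -0.38 with limma at the larger and smaller pseudocount, -0.60 with the common sum, -0.04 with the offset, -0.03 with block and offset, and -0.35 to -0.21 on leaving out 1 library. NFE2L1 ranged from 0.26 to 1.13 on leaving out 1 library, was at 0.25 with the common sum, and among these alternatives passed only without library 1 labelled overexpression.

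Signs of helicases that did not pass were less stable. With the offset, and then with block and offset, the log2 fold change was 0.15 and 0.13 for DDX5, 0.01 and 0.01 for DDX1, 0.20 and 0.16 for DDX10, 0.17 and 0.18 for DDX18, 0.37 and 0.30 for DDX20, 0.21 and 0.12 for DDX24, 0.15 and 0.14 for DDX46, 0.12 and 0.11 for DDX52, 0.05 and 0.05 for DDX6, 0.25 and 0.25 for DHX32, -0.04 and -0.01 for DHX16, -0.10 and -0.14 for DHX30 and -0.17 and -0.16 for DHX34, and with the offset alone 0.05 for DHX8. It was also -0.01 and -0.01 for ALYREF, -0.19 and -0.19 for EIF4EBP1 and -0.03 and -0.02 for BUD31. With the common sum it was -0.09 for DDX27, -0.23 for DDX55, -0.29 for DHX16, -0.36 for DHX30 and -0.33 for DHX34. With limma at the larger and smaller pseudocount it was -0.01 and -0.01 for DHX16, -0.08 and -0.08 for DHX30 and -0.08 and -0.09 for DHX34. On leaving out 1 library it ranged from -0.14 to 0.04 for DDX11, -0.43 to 0.08 for DDX24, -0.13 to 0.04 for DHX32, -0.28 to 0.32 for DHX30, -0.13 to 0.15 for DHX34, -0.56 to 0.19 for DHX38, -0.31 to 0.06 for DDX23, -0.70 to 0.13 for DDX10 and -0.03 to 0.23 for DHX16.

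Pair differences turned sign with the offset for DDX19A and DDX19B (-0.01), DDX21 and DDX50 (0.12), DHX8 and DHX38 (0.18), DDX42 and DDX46 (-0.32) and DHX29 and DHX57 (0.00). On leaving out 1 library the ranges were -0.12 to 0.22 for DDX19A and DDX19B, -0.40 to 0.01 for DDX21 and DDX50, -0.20 to 0.39 for DDX42 and DDX46 and -0.25 to 0.05 for DHX29 and DHX57. Members at levels under 1, such as DDX47, are limited by depth.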
